A study of Homo sapiens with 23 samples.

Results

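The genes described here make or sense prostaglandins: PTGS1, PTGS2, PTGES, PTGES2, PTGES3 and PTGIS encode enzymes of synthesis, and PTGER2, PTGER4, PTGFR and PTGIR encode receptors. They were taken by name from the probe annotation, and all 10 passed the filter on detection among the 12994 genes tested. Together they have 14 probes, 2 each for PTGS1, PTGS2, PTGES2 and PTGFR. The arrays were Illumina beadchips of a single colour, and the cells were CCL-75, 1 established line of human lung fibroblasts, so no difference between donors is covered. Of the 6 groups, Control received neither cytokine nor antibody, and IL13 received interleukin-13 (IL-13) for 20 hours. Pre_only received tumour necrosis factor (TNF) with IL-17 for 72 hours, called priming here. Pre_IL13 was primed, washed and given IL-13 for 20 hours. Pre_Ab_only and Pre_Ab_IL13 were primed the same way, with a neutralising antibody to IL-13Ra2, the decoy receptor of IL-13, in the last 1 hour, and only Pre_Ab_IL13 then received IL-13. Each group had 4 arrays, experiments A and B at culture passages 6 and 8 (P6-A to P8-B), except Pre_only, for which 3 were analysed (P6-A, P6-B and P8-B).

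Prostaglandins are short-lived lipid signals. Phospholipase releases arachidonic acid from membranes, cyclooxygenases convert it to prostaglandin H2, and terminal synthases turn that into prostaglandin E2, prostacyclin and others, which act on G protein-coupled receptors of nearby cells. In lung fibroblasts prostaglandin E2 and prostacyclin raise cyclic AMP through their Gs-coupled receptors and are known for restraining proliferation, collagen synthesis and the change to myofibroblasts.

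Per array, 17818 to 20167 probes passed detection, with a median raw intensity of 93.4 to 105.8. All 10 fibroblast markers examined, COL1A1 and PDGFRA among them, were detected on all 23 arrays. Markers of other cells varied. Among those with a probe, TPSAB1 and CPA3 of mast cells were detected on 1 and 2 arrays, EPCAM and KRT18 of epithelium on 2 and 3, and PECAM1 and VWF of endothelium on 1 and 17. KRT19 of epithelium, TEK of endothelium, CD14 and LYZ of leukocytes, and ACTA2, MYH11 and CNN1 of smooth muscle were detected on all 23. Levels below are log2 normalised intensities of 1 probe per gene, with the standard deviation (SD) over arrays. Changes are differences on that log2 scale with the standard error (SE) of the linear model, and a gene was called at a Benjamini-Hochberg adjusted p under 0.05 over all 12994 genes. The design calls passages biological and A and B independent experiments, while the sample labels call A and B technical, so the p-values measure the spread between these arrays. Each passage had its own beadchip, and passage and beadchip cannot be told apart.

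The bases before the transcription start are shown for PTGS2 and PTGES, which rose together with priming, and for PTGER4, which rose with IL-13. They are the 250 bases upstream of the start in RefSeq (GRCh38.p14), 5′ to 3′ on the strand of the gene: chr1:186680424-186680673 on the minus strand for PTGS2, chr9:129753043-129753292 on the minus strand for PTGES and chr5:40679665-40679914 on the plus strand for PTGER4. Capitals mark matches, on either strand, to the motifs named after them.
PTGS2: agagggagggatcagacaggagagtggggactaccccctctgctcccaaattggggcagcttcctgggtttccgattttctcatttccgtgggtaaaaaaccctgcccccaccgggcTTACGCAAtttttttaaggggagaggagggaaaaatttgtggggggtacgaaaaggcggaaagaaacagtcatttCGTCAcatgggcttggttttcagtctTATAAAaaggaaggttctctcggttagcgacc
PTGES: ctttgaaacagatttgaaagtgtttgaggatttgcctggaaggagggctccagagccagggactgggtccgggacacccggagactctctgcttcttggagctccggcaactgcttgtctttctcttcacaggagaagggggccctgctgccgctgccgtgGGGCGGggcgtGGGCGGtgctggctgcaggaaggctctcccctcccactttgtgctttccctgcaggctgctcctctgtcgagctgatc
PTGER4: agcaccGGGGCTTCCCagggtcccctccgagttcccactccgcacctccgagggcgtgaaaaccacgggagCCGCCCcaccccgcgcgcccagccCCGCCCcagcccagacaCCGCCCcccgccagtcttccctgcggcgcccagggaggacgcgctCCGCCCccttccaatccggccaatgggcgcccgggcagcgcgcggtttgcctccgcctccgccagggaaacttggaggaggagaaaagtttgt
The motifs searched were those of NF-kB (GGGRNNYYCC), C/EBP (TTNNGNAA), the cAMP response element (TGACGTCA) and its half-site (CGTCA, which lies within the whole element), AP-1 (TGANTCA), SP1 (GGGCGG), the TATA box (TATAAA) and STAT6 (TTCNNNNGAA). R is A or G, Y is C or T, and N is any base. Only exact matches to these letters are marked, so an unmarked stretch can still hold a variant site. In PTGS2 the stretch gggactaccc has an a where the first Y of the NF-kB letters stands, and is therefore not marked. In PTGS2 the capitals are a C/EBP match 133 to 126 bases before the start, a cAMP half-site at 58 to 54 and a TATA box at 32 to 27. PTGES held 2 SP1 matches, at 89 to 84 and 78 to 73 bases. PTGER4 held an NF-kB match at 244 to 235 bases and 4 SP1 matches on the opposite strand. Over the same window of all 35116 promoters in the table, 9.96% held the NF-kB motif, 33.2% the C/EBP motif, 21.2% the half-site, 1.65% the whole element, 6.57% AP-1, 42.6% SP1, 10.7% the TATA box and 5.38% STAT6. Promoters were in the table for 8 of the 10 members, and PTGIS and PTGIR were not among them. PTGIS, which was called both with IL-13 and with priming, could therefore not be shown.

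The comparisons asked which members respond to IL-13, which to priming, and whether priming or the antibody changes the response to IL-13. With IL-13 alone (IL13 against Control) 2 of the 10 members rose and 0 fell, beside 1.15% of all genes that rose and 0.716% that fell. Their median change was 0.09, against -0.01 over all genes. With priming (Pre_only against Control) 2 rose and 2 fell, beside 12% and 12.8% of all genes, and the median was -0.05 against -0.0089. In primed cells IL-13 (Pre_IL13 against Pre_only) moved 0 of the 10 past the limma threshold, where 0.0308% of all genes were called. At an unadjusted p under 0.05 there were 3 members and 833 genes. With the antibody, IL-13 (Pre_Ab_IL13 against Pre_Ab_only) raised 2 members and lowered 0, beside 1.15% and 1.09% of genes. The antibody itself (Pre_Ab_only against Pre_only) gave 0 limma calls among members and 0% of genes, with 1 member and 657 genes at an unadjusted p under 0.05. In IL-13-treated primed cells (Pre_Ab_IL13 against Pre_IL13) 2 members were higher with the antibody and 0 lower, beside 0.677% and 0.246%. Pre_IL13 against IL13, which gives priming in the presence of IL-13, showed 2 rises and 2 falls, beside 14% and 13.8%. These comparisons share arrays and are not independent of each other.

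**Figure D1:**
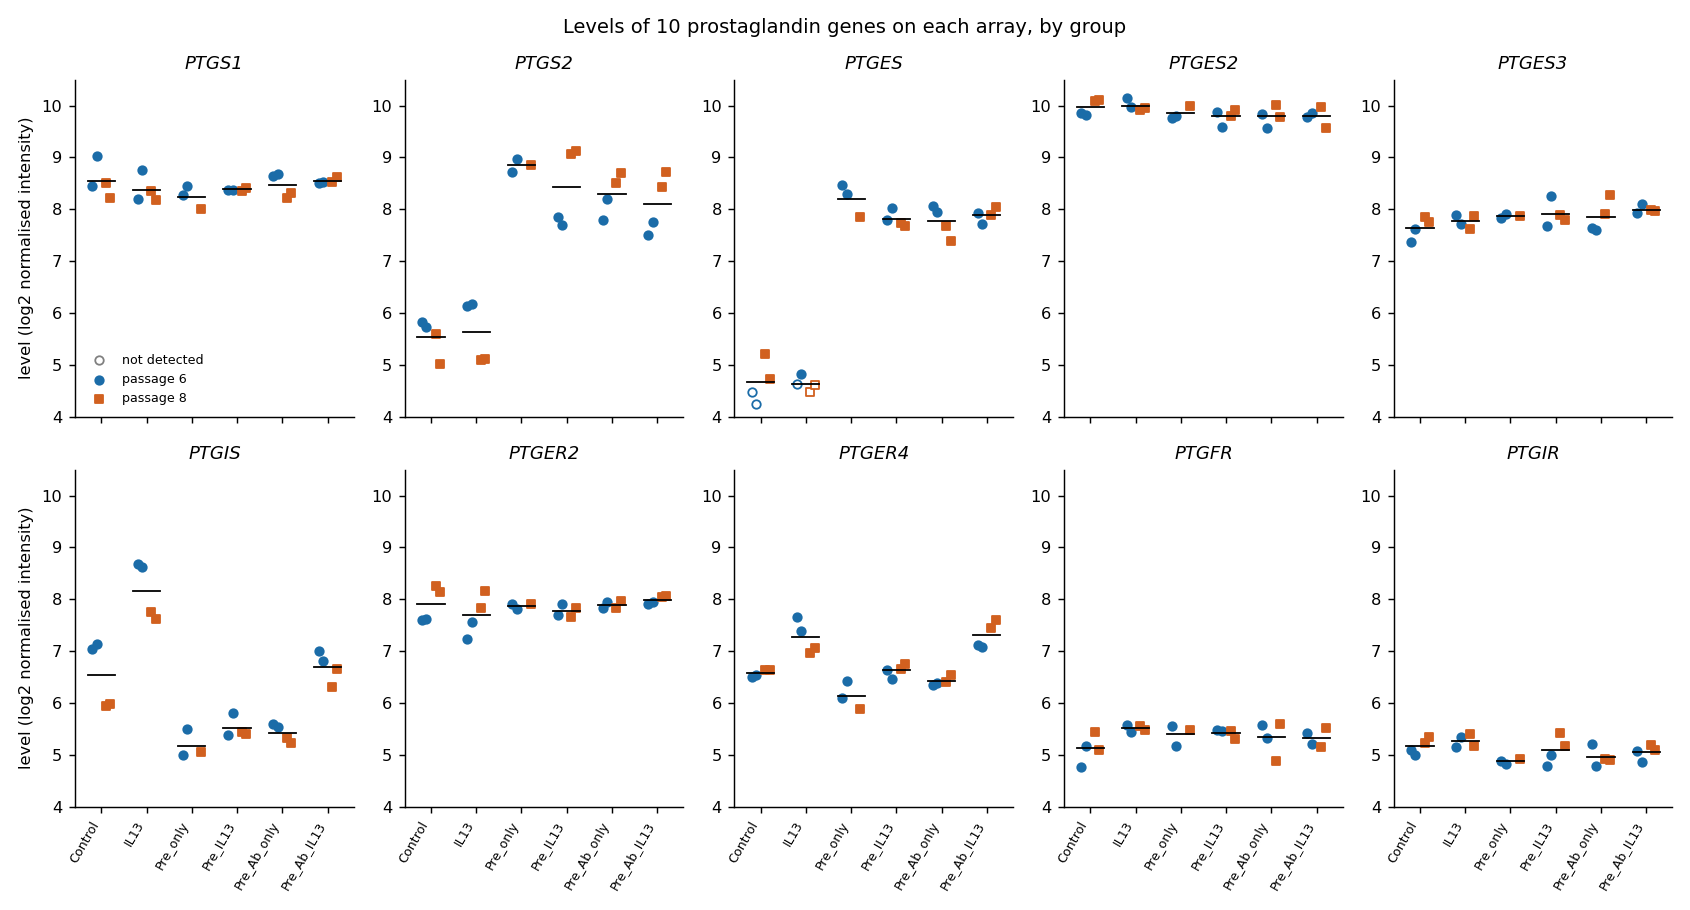
Level of each of the 10 genes (y axis, log2 normalised intensity) on every array, by group. Circles are passage 6, squares passage 8, open symbols arrays on which the probe was not detected, and black lines group means. PTGS2 and PTGES lie high in the 4 primed groups, PTGIS is highest in IL13, PTGER4 is highest in IL13 and Pre_Ab_IL13, and the group means of each of the other 6 span at most 0.392.

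**Figure D2:**
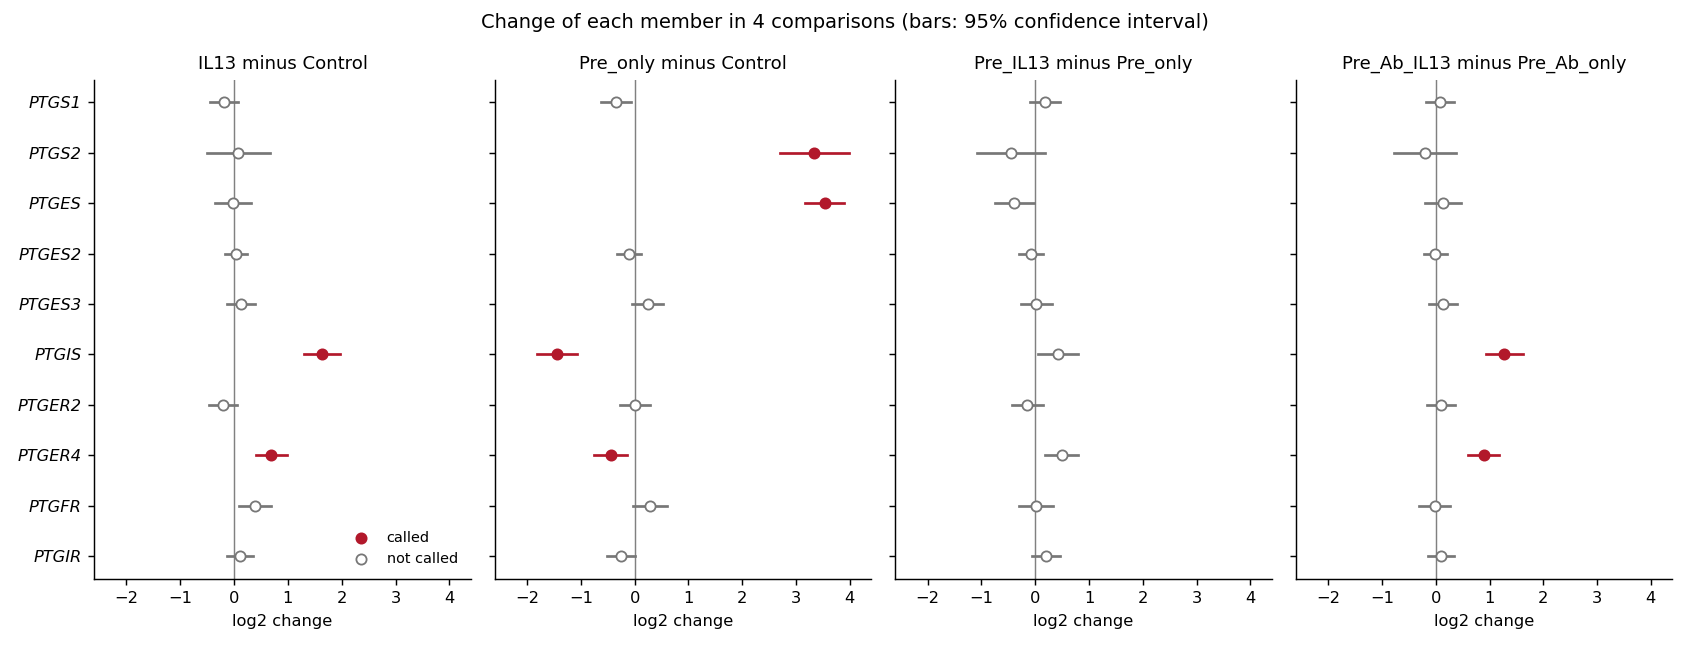
Log2 change of each member (x axis) in 4 comparisons, with 95% confidence intervals. Filled points were called at an adjusted p under 0.05. PTGIS and PTGER4 are called with IL-13 in unprimed and in antibody-treated primed cells, and PTGS2, PTGES, PTGIS and PTGER4 with priming.

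PTGS2 encodes cyclooxygenase 2, the inducible enzyme that makes prostaglandin H2. On the Control arrays it lay at 5.83, 5.74, 5.60 and 5.01 (P6-A, P6-B, P8-A, P8-B), and on the IL13 arrays at 6.13, 6.17, 5.09 and 5.11. With priming alone the levels were 8.73 (P6-A), 8.97 (P6-B) and 8.85 (P8-B). All 3 primed arrays lay above every unprimed array, with a gap of more than 2 log2 units, while Control and IL13 overlapped. PTGS2 rose 10.1-fold in Pre_only against Control (n = 3 and 4), a log2 change of 3.34 ± 0.31 (SE, adjusted p = 5.98e-10). The change was 3.06 within passage 6 and 3.54 within passage 8. The PTGS2 probe used was detected on all 4 Control arrays, but at low raw intensities of 134, 134, 127 and 108. On the Pre_only arrays they were 370, 565 and 521. How far the low Control intensities limit the measured fold was not tested. RNA came from whole wells, so more RNA per cell and a larger share of cells with the transcript cannot be told apart, here or below. The weaker second probe of PTGS2, detected on 17 of 23 arrays, rose by 1.76 ± 0.21 (adjusted p = 1.28e-07). Markers of other cells moved with priming too, and their part in the changes of the members was not tested. All 3 smooth muscle markers with a probe fell, and their summed level (log2) ran from 14.0 to 14.3 in Control and from 13.2 to 13.5 in Pre_only. Of the others KRT19 and VWF fell, while CD14 and TEK rose and 4 of 10 fibroblast markers rose and 1 fell. The summed level of the tested markers in Control and Pre_only ran from 15.6 to 15.8 and from 15.8 to 15.99 for fibroblasts, from 8.16 to 8.29 and from 9.09 to 9.34 for leukocytes, from 9.27 to 9.70 and from 6.93 to 7.73 for epithelium, and from 7.28 to 7.67 and from 7.40 to 8.04 for endothelium. With IL-13 alone PTGS2 changed by 0.08 ± 0.29, with a 95% confidence interval from -0.51 to 0.66 and an adjusted p = 0.954.

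In primed cells given IL-13, PTGS2 lay at 7.84, 7.70, 9.07 and 9.13 in Pre_IL13, again from P6-A to P8-B. In Pre_Ab_only it lay at 7.80, 8.20, 8.50 and 8.69, and in Pre_Ab_IL13 at 7.50, 7.75, 8.43 and 8.72. In each of these 3 groups both passage 8 arrays were above both passage 6 arrays, and the 3 groups overlapped each other. All Pre_Ab_only arrays lay below all Pre_only arrays. PTGS2 was 7.03-fold higher in Pre_IL13 than in IL13 (2.81 ± 0.29, adjusted p = 3.64e-09), with 1.63 within passage 6 and 3.999 within passage 8. Within the primed groups it differed from Pre_only by -0.45 ± 0.31 in Pre_IL13 (adjusted p = 0.834) and by -0.59 ± 0.31 in Pre_Ab_only (adjusted p = 0.961), neither of them called. Neighbouring primed groups in the order of means (Pre_Ab_IL13 at 8.10, Pre_Ab_only at 8.30, Pre_IL13 at 8.44 and Pre_only at 8.85) differed by less than the larger SD of the pair.

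PTGES encodes microsomal prostaglandin E synthase 1, the inducible synthase that works downstream of cyclooxygenase 2. It was at 4.48, 4.24, 5.20 and 4.72 in Control, where the probe was detected on 2 of 4 arrays (both of passage 8), and at 4.63, 4.82, 4.48 and 4.60 in IL13, where it was detected on 1 of 4. On the Pre_only arrays it was at 8.47, 8.30 and 7.85. Every primed array lay above every unprimed one, and the unprimed levels are near the limit of detection. PTGES rose 11.6-fold in Pre_only (3.53 ± 0.18, n = 3 and 4, adjusted p = 4.78e-16). Its size depended on the processing: over the other settings the change ran from 1.84 to 4.02, while the call was kept. The group mean was 7.80 ± 0.15 (SD) in Pre_IL13, 7.77 ± 0.30 in Pre_Ab_only and 7.90 ± 0.14 in Pre_Ab_IL13. All 4 primed groups overlapped their neighbours in the order of means. Against IL13, Pre_IL13 was higher by 3.17 ± 0.16 (adjusted p = 7.56e-16). IL-13 changed PTGES by -0.03 ± 0.16 in unprimed cells (adjusted p = 0.973), by -0.39 ± 0.18 in primed cells (adjusted p = 0.739) and by 0.13 ± 0.16 with the antibody (adjusted p = 0.882).

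The constitutive enzymes of the same steps moved little. PTGS1, cyclooxygenase 1, ran from 8.22 to 9.03 in Control and from 8.004 to 8.44 in Pre_only, which overlap, and changed by -0.35 ± 0.14 (adjusted p = 0.0651). That change was called without Control P6-A (-0.43, adjusted p = 0.0377) or without Control P8-B (-0.43, adjusted p = 0.0304). Its second probe changed by -0.02 ± 0.15. PTGES2, the membrane-associated prostaglandin E synthase 2, had group means between 9.79 and 10.0 and PTGES3, the cytosolic prostaglandin E synthase and Hsp90 co-chaperone p23, between 7.65 and 7.99. With priming PTGES2 changed by -0.10 ± 0.11 (95% interval -0.33 to 0.13) and PTGES3 by 0.24 ± 0.14 (-0.05 to 0.53). Neighbouring groups overlapped for all 3 genes, and the second probe of PTGES2 was not called in any of the 10 comparisons of groups and responses.

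PTGIS encodes prostacyclin synthase, which turns prostaglandin H2 into prostacyclin. In Control it was at 7.05 and 7.14 in passage 6 and at 5.94 and 5.99 in passage 8. In IL13 it was at 8.68 and 8.62 in passage 6 and at 7.76 and 7.61 in passage 8. Every IL13 array lay above every Control array, and in both groups passage 8 was the lower. PTGIS rose 3.11-fold with IL-13 (1.64 ± 0.16, n = 4 and 4, adjusted p = 6.96e-08). The rise was 1.56 within passage 6 and 1.72 within passage 8. Some markers of other cells were lower with IL-13 alone: CD14 (-0.46, adjusted p = 0.0208), KRT19 (-0.50, adjusted p = 0.0347), VWF (-0.46, adjusted p = 0.0489) and TEK (-0.46, adjusted p = 0.0174). The summed level in Control and IL13 ran from 8.16 to 8.29 and from 7.67 to 7.998 for leukocyte markers, from 9.27 to 9.70 and from 8.67 to 9.33 for epithelial ones, and from 7.28 to 7.67 and from 6.77 to 7.32 for endothelial ones. Of 10 fibroblast and 3 smooth muscle markers 0 were called. The part of these markers in the changes of PTGIS and PTGER4 was not tested. With the antibody TEK was again lower with IL-13 (-0.53, adjusted p = 0.00355). With priming PTGIS lay at 4.99, 5.50 and 5.04, below all Control arrays, and fell 2.72-fold (-1.44 ± 0.18, adjusted p = 1.85e-07), or -1.85 within passage 6 and -0.92 within passage 8. Under priming PTGIS moved opposite to PTGS2 and PTGES. Its probe was detected on all Pre_only and Pre_IL13 arrays, but at low raw intensities. These were 102, 124 and 111 in Pre_only and 119, 158, 123 and 115 in Pre_IL13. How far such low intensities limit the measured fall and the later responses of PTGIS was not tested.

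After priming the response of PTGIS to IL-13 was smaller. Pre_IL13 had levels of 5.39, 5.80, 5.44 and 5.41 and overlapped Pre_only, a change of 0.42 ± 0.18 that was not called (95% interval 0.06 to 0.79, adjusted p = 0.706). The difference between the responses of primed and unprimed cells was -1.22 ± 0.24 (adjusted p = 0.0128), and -1.21 and -1.34 within passages 6 and 8. PTGIS was the 1 fall among the 10 members in this interaction, with 0 rises, where 0.254% of all genes fell and 0.0462% rose. The call ended without Pre_IL13 P6-A (-1.07, adjusted p = 0.0548), Pre_only P6-B (-1.15, adjusted p = 0.0597) or Pre_only P8-B (-1.08, adjusted p = 0.0526), and with the passage term left out (-1.31, adjusted p = 0.316), with median scaling (-0.98, adjusted p = 0.301) or with A and B averaged (-1.28, adjusted p = 0.383). Against IL13, Pre_IL13 was 6.32-fold lower (-2.66 ± 0.16, adjusted p = 6.43e-14).

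With the antibody, PTGIS lay at 5.59, 5.53, 5.33 and 5.23 in Pre_Ab_only and at 7.01, 6.82, 6.31 and 6.65 in Pre_Ab_IL13. The groups did not overlap. The rise was 2.43-fold (1.28 ± 0.16, adjusted p = 5.37e-06), 1.36 within passage 6 and 1.20 within passage 8. Pre_Ab_IL13 was 2.28-fold above Pre_IL13 (1.19 ± 0.16, adjusted p = 3.77e-05). The test of the difference itself, the response with the antibody minus that without it, gave 0.86 ± 0.24 and was not called (adjusted p = 0.24). Of the 10 members 0 were called in it, beside 0.231% of genes. At an unadjusted p under 0.05 there were 2 members and 861 genes. The PTGIS difference was called with the 4 groups of the comparison fitted alone (0.90, adjusted p = 0.0168) and with adjustment over all comparisons together (adjusted p = 0.0332). Against the response of unprimed cells the response with the antibody differed by -0.36 ± 0.23 (95% interval -0.84 to 0.12, adjusted p = 0.887). There 0 of the 10 members were called, beside 0.0693% of genes. At an unadjusted p under 0.05 there were 0 members and 759 genes. In the order of means PTGIS ran from 5.18 in Pre_only over 5.42 in Pre_Ab_only and 5.51 in Pre_IL13 to 6.53 in Control, 6.70 in Pre_Ab_IL13 and 8.17 in IL13. Of the 5 steps in that order, those from Pre_IL13 to Control and from Pre_Ab_IL13 to IL13 were between groups that did not overlap.

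**Figure D3:**
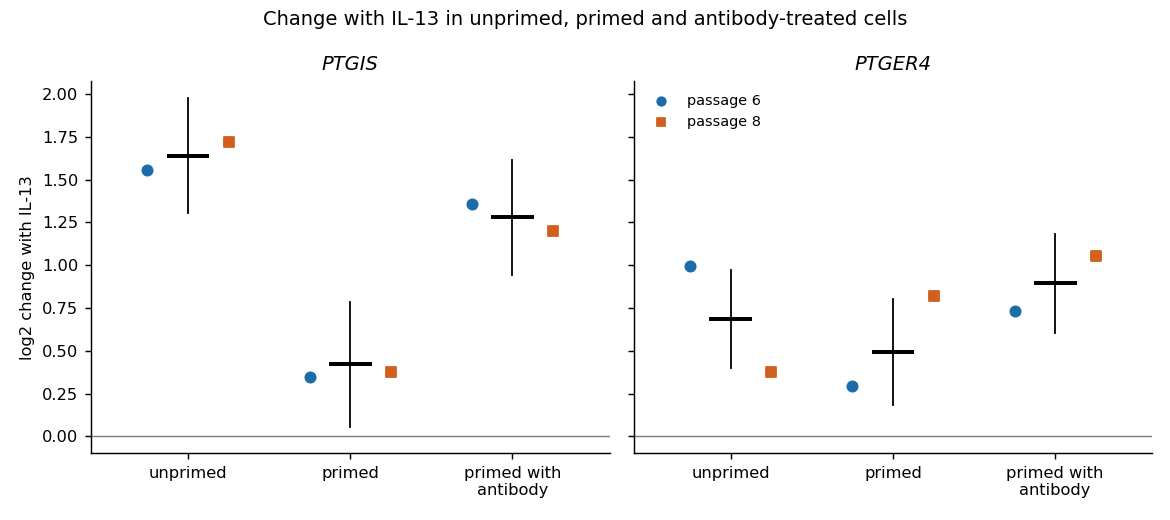
Log2 change with IL-13 (y axis) of PTGIS and PTGER4 in unprimed, primed and antibody-treated primed cells. Black bars are model estimates with 95% confidence intervals, circles passage 6 and squares passage 8. PTGIS changes by 1.64, 0.42 and 1.28, and PTGER4 by 0.69, 0.49 and 0.89.

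Of the receptors, PTGER4 changed most. It encodes EP4, a Gs-coupled receptor of prostaglandin E2. Its levels were 6.50, 6.54, 6.64 and 6.64 in Control and 7.65, 7.38, 6.97 and 7.06 in IL13. The groups did not overlap, and the rise was the larger in passage 6. PTGER4 rose 1.61-fold (0.69 ± 0.14, n = 4 and 4, adjusted p = 0.0043), with 0.997 against 0.38 for the earlier and later passage. The call ended with passage 8 alone (adjusted p = 0.271), with A and B averaged (adjusted p = 0.222) and with median scaling (0.51, adjusted p = 0.30). In Pre_only it lay at 6.09, 6.42 and 5.89, below all Control arrays, a 1.36-fold fall (-0.45 ± 0.15, adjusted p = 0.0293), -0.27 within passage 6 and -0.75 within passage 8. This fall lost its call under many settings. It was -0.22 in the authors' normalised table and with quantile normalisation without background subtraction (adjusted p = 0.0707 in both), -0.31 with an offset of 50 (adjusted p = 0.0535), -0.48 with median scaling (adjusted p = 0.113), -0.51 with A and B averaged (adjusted p = 0.0798) and -0.27 with passage 6 alone (adjusted p = 0.335). With adjustment over all comparisons together the adjusted p was 0.103. It also lost its call without Control P8-A (-0.43, adjusted p = 0.0596), Control P8-B (-0.43, adjusted p = 0.0598), Pre_only P6-A (-0.43, adjusted p = 0.0872) or Pre_only P8-B (-0.29, adjusted p = 0.246).

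In primed cells given IL-13, PTGER4 was at 6.63, 6.47, 6.66 and 6.75, above all Pre_only arrays, and the change of 0.49 ± 0.15 was not called over all genes (adjusted p = 0.422). Pre_Ab_only lay between 6.34 and 6.54, and Pre_Ab_IL13 at 7.12, 7.08, 7.45 and 7.61. All 4 Pre_Ab_IL13 arrays were above every other primed array. PTGER4 rose 1.86-fold with IL-13 in antibody-treated cells (0.89 ± 0.14, adjusted p = 1.23e-04), a call that ended with A and B averaged (adjusted p = 0.0535). It was 1.61-fold higher in Pre_Ab_IL13 than in Pre_IL13 (0.69 ± 0.14, adjusted p = 0.0062). The last call ended without Pre_Ab_IL13 P8-B (0.58, adjusted p = 0.0596), with A and B averaged (adjusted p = 0.349), with median scaling (adjusted p = 0.09) and with passage 6 alone (0.55, adjusted p = 0.337). Pre_IL13 lay 1.56-fold below IL13 (-0.64 ± 0.14, adjusted p = 7.18e-04), and that call ended with passage 8 alone (-0.31, adjusted p = 0.106) and with median scaling (-0.36, adjusted p = 0.158). The responses to IL-13 were not shown to differ: primed against unprimed cells gave -0.19 ± 0.21 (-0.70 within passage 6 and 0.44 within passage 8, adjusted p = 0.868) and antibody against none gave 0.40 ± 0.21 (adjusted p = 0.772).

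PTGER2, which encodes EP2, the other Gs-coupled receptor of prostaglandin E2 among the members, had group means from 7.70 in IL13 to 7.99 in Pre_Ab_IL13. PTGFR, the receptor of prostaglandin F2-alpha, and PTGIR, the prostacyclin receptor, lay low on the array, with group means from 5.12 to 5.51 and from 4.88 to 5.27. None of the 3 was called in any of the 10 comparisons of groups and responses. PTGFR was at 4.77, 5.18, 5.44 and 5.10 in Control and at 5.57, 5.44, 5.56 and 5.48 in IL13, a change of 0.39 ± 0.14 (adjusted p = 0.216). Its second probe changed by 0.17 ± 0.17. PTGIR was at 5.09, 4.997, 5.22 and 5.34 in Control and at 4.88, 4.82 and 4.92 in Pre_only, groups that did not overlap, a change of -0.26 ± 0.13 (adjusted p = 0.144). For both genes neighbouring groups in the order of means overlapped.

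The passages differed in several members. Over all groups PTGIS was lower in passage 8 by 0.55 (-0.55 ± 0.10, adjusted p = 1.22e-04) and PTGS1 by 0.21 (-0.21 ± 0.08, adjusted p = 0.0395), and PTGER2 was higher (0.23 ± 0.08, adjusted p = 0.0239). Of the 10 members 1 was thus higher and 2 lower, beside 16.6% and 12.8% of all genes. The PTGS1 call ended when any of 10 of the 23 arrays was left out, with changes between -0.20 and -0.16, with median scaling (-0.07) and with A and B averaged (-0.21, adjusted p = 0.069). The PTGER2 call ended with A and B averaged (0.22, adjusted p = 0.125) and without Control P6-A (0.20, adjusted p = 0.0513), Control P8-A (0.20, adjusted p = 0.0548) or IL13 P8-B (0.19, adjusted p = 0.0589).

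Differences between primed and unprimed groups also depended on passage. With all 4 primed groups set against both unprimed groups, 4 members differed between passages, beside 7.71% of all genes. The effect on PTGS2 was larger in passage 8 by 1.48 ± 0.15 (adjusted p = 1.28e-07), and the fall of PTGIS was smaller there by 0.77 ± 0.15 (adjusted p = 0.00111). This contrast takes in the groups given IL-13 or antibody. For Pre_only against Control alone the PTGS2 difference was smaller, at 0.48. Raw PTGS2 intensities on the unprimed arrays of passage 8 were low, from 108 to 127, and their part was not tested. Control means of PTGIS were 7.09 in passage 6 and 5.97 in passage 8, and Pre_only means were 5.24 and 5.04. The Pre_only levels are low, and their part in this difference was not tested. PTGER2 lay higher with priming in passage 6 and lower in passage 8, a difference of -0.56 ± 0.13 (adjusted p = 0.00379). On the Control arrays of passage 6 it lay at 7.60 and 7.62 and on those of passage 8 at 8.26 and 8.14, while all primed arrays lay between 7.67 and 8.06. With median scaling neither the PTGIS nor the PTGER2 difference was called (0.71, adjusted p = 0.105, and -0.60, adjusted p = 0.259). PTGES rose less in passage 8 by 0.47 (-0.47 ± 0.15, adjusted p = 0.0463), a call that ended when any of 15 of 22 arrays was left out (changes from -0.50 to -0.35), and with an offset of 50, median scaling, no detection filter or array weights. For Pre_only against Control alone, PTGES was the 1 member called, beside 1.44% of genes, with a measured difference of -1.14 ± 0.26 (adjusted p = 0.0208), from 4.02 in passage 6 and 2.89 in passage 8. Neither Control array of passage 6 detected PTGES, so 4.02 is taken against levels that were not above background, and its size and that of the difference are not exact. Passage 8 of Pre_only is 1 array, whose spread is assumed to be that of the other groups. The call ended with median scaling (-0.93, adjusted p = 0.881) and without Control P6-B (-1.01, adjusted p = 0.107), Control P8-A (-0.89, adjusted p = 0.158) or Pre_only P6-A (-1.05, adjusted p = 0.0792).

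For the response to IL-13 in unprimed cells 0 members differed between passages, beside 0.0231% of genes. At an unadjusted p under 0.05 there were 4 members and 1026 of the 12994 genes. In primed cells PTGS2 changed with IL-13 by -1.08 in passage 6 and by 0.25 in passage 8, a difference of 1.33 ± 0.27 (adjusted p = 0.0325), and was the 1 member called beside 0.169% of genes. This contrast was added after the values of both passages had been seen, and the call ended when any of Pre_IL13 P6-A (1.40), P6-B (1.26), P8-A (1.36), P8-B (1.30) or Pre_only P6-B (1.21) was left out, with adjusted p between 0.0592 and 0.198. It ended too with median scaling (0.91, adjusted p = 0.686) and with the mean of the probes (1.24, adjusted p = 0.0963). With passage 6 alone the fall of PTGS2 was called (adjusted p = 0.00324). In antibody-treated cells 0 members differed, beside 0.077% of genes, and PTGS2 changed by -0.37 and -0.02. At an unadjusted p under 0.05 there were 2 members and 528 genes. Since passage 8 of Pre_only is 1 array, its values rest on that array.

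**Figure D4:**
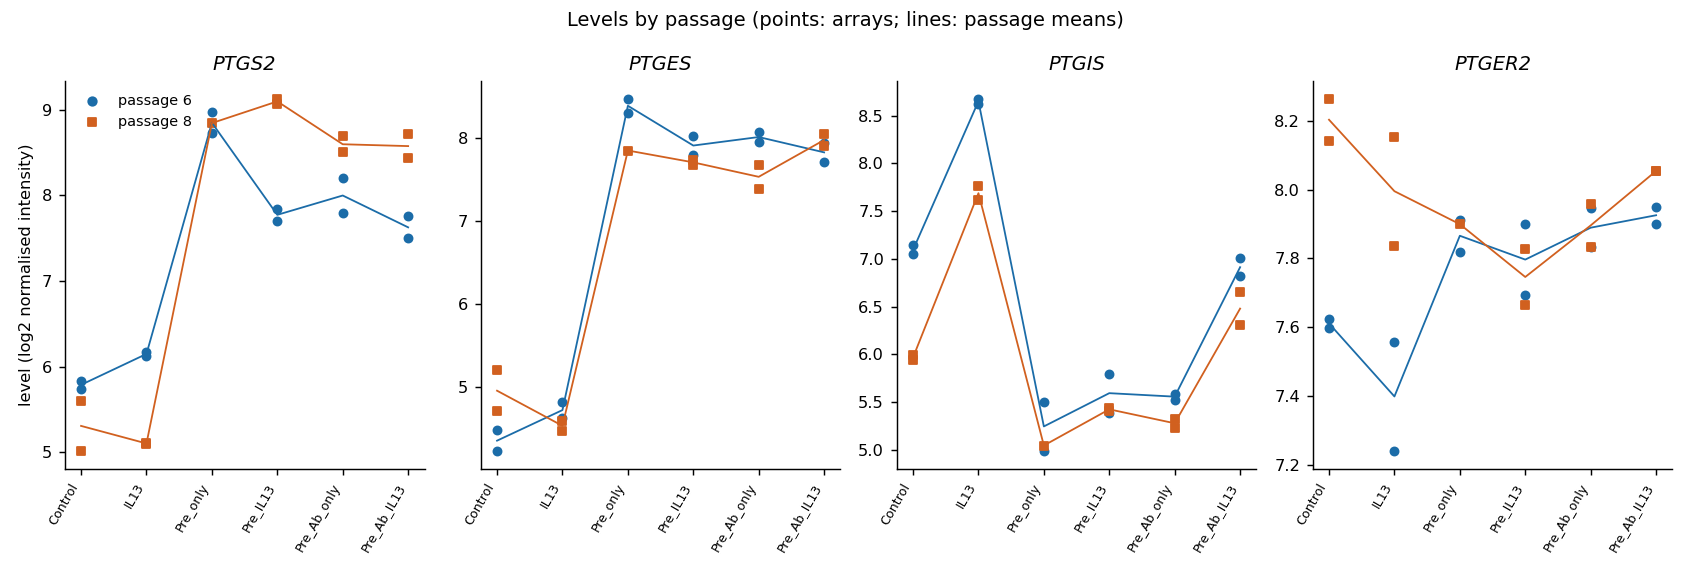
Levels (y axis, log2 normalised intensity, a scale of its own in each panel) of PTGS2, PTGES, PTGIS and PTGER2 by group, with arrays as points and passage means as lines. PTGS2 lies higher in passage 6 in the unprimed groups and higher in passage 8 in 3 of the 4 primed groups, and PTGER2 differs between passages in Control and IL13.

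Other genes of the pathway were followed in 6 lists. With IL-13 alone 0 of their 45 tested genes were called by limma, where 1.15% of all genes rose and 0.716% fell. At an unadjusted p under 0.05 there were 2 of the 45, and 1528 of all genes. With priming 10 rose and 6 fell, where 12% of all genes rose and 12.8% fell. In the list of precursor release 1 of 7 rose and 1 fell. PLA2G4A, the cytosolic phospholipase that frees arachidonic acid, was at least 1.14-fold higher in the mean of Pre_only (adjusted p = 0.00431). It was detected on 0 of 4 Control arrays and on 2 of 3 Pre_only arrays. The groups overlapped, with the lowest Pre_only level at 4.47 and the highest Control level at 4.51. PLA2G5, a secreted phospholipase, was not detected in Pre_only and at least 1.27-fold lower there (adjusted p = 1.25e-04). Of 7 other prostanoid synthases 2 rose and 1 fell. AKR1C3, an aldo-keto reductase with prostaglandin F synthase activity, rose by 2.76 ± 0.38 (3.96 within passage 6, 1.05 within passage 8). Close paralogs of AKR1C3 may share its probe. TBXAS1, thromboxane synthase, rose by 0.91 ± 0.22 (1.41 within passage 6, 0.08 within passage 8), and the glutathione transferase GSTM2 fell by 0.81 ± 0.13. The 1 other prostanoid receptor that could be tested, PTGER1 (EP1, which signals through calcium), fell by 0.86 ± 0.14 (adjusted p = 1.75e-05).

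Of 6 transport and breakdown genes 3 rose: ABCC4, an exporter of prostaglandin E2 and cyclic AMP (0.94 ± 0.16), the carbonyl reductase CBR4 (0.49 ± 0.14) and the transporter SLCO3A1 (0.48 ± 0.13). In the leukotriene list 1 of 4 rose, LTA4H, leukotriene A4 hydrolase (0.36 ± 0.10). Of 20 cyclic AMP and protein kinase A genes 3 rose and 3 fell, beside the 12% and 12.8% of all genes. Those that rose encode phosphodiesterases, which break cyclic AMP down: PDE4B (1.14 ± 0.16), PDE7B (0.48 ± 0.15) and PDE4D, at least 1.51-fold higher, with no Control array detecting it. The 3 that fell were the adenylyl cyclase ADCY9 (-0.83 ± 0.11) and the kinase regulatory subunits PRKAR1B (-0.50 ± 0.14) and PRKAR2A (-0.59 ± 0.15). In Pre_IL13 against IL13, 7 of the 45 listed genes rose and 9 fell, where 14% of all genes rose and 13.8% fell. Rises there numbered 1 in the synthases, 0 in the leukotriene list and 2 in the cyclic AMP list. The falls included genes not called with priming alone. These were ANXA1 (-0.28), which encodes the phospholipase inhibitor annexin A1, ADCY3 (-0.29), PRKACB (-0.31) and the Gs-alpha gene GNAS (-0.33). The median change with priming was -0.03 in precursor release, 0.11 in the synthases, 0.36 in transport and breakdown, 0.06 in the leukotriene list and -0.10 in the cyclic AMP list, against -0.0089 over all genes.

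**Figure D5:**
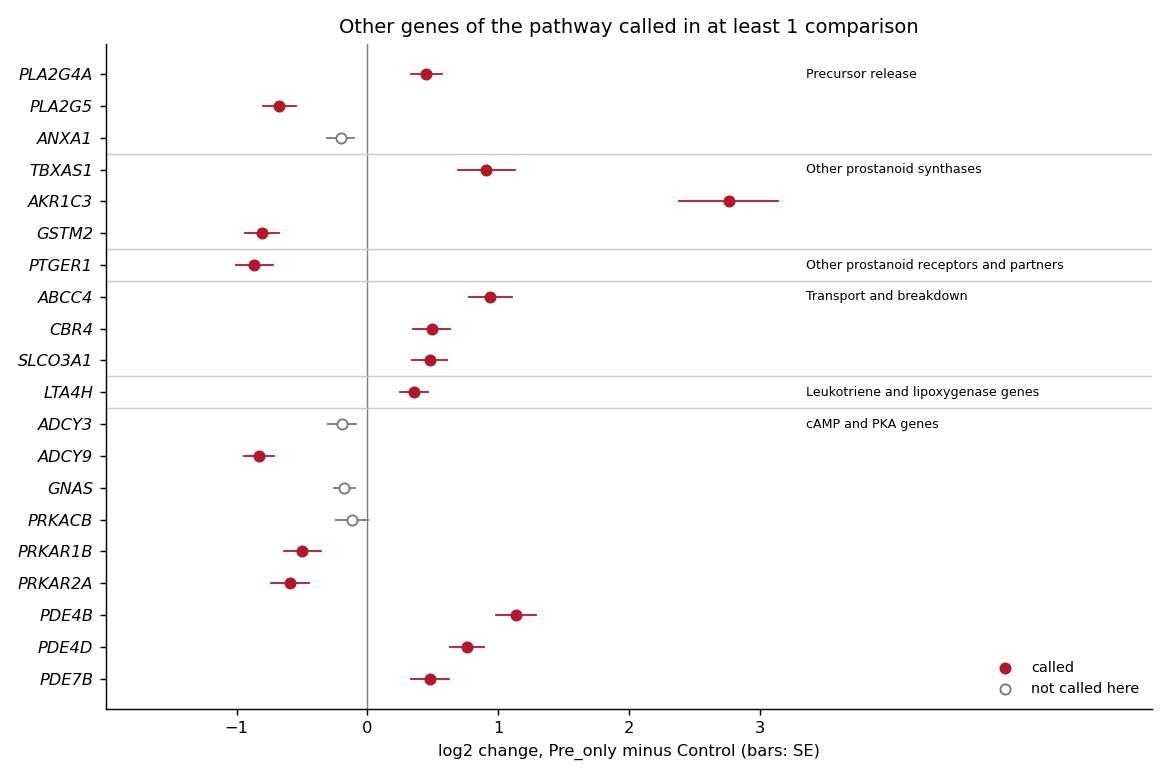
Log2 change in Pre_only against Control (x axis, bars are SE) of the 20 other pathway genes that were called in at least 1 comparison, grouped by list. Filled points were called in this comparison; AKR1C3, at 2.76, lies farthest from 0.

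Genes with the most similar pattern were sought for the 4 members whose group means spanned at least 1 log2 unit, by the root mean square difference of the 5 changes from Control. For PTGS2 they were the chemokine genes CXCL2 (0.18) and CXCL10 (0.23), and for PTGES they were the serpin gene SERPINB7 (0.18) and the alarmin gene IL33 (0.19). PTGIS had more distant neighbours, the protease inhibitor gene SPINT2 (0.35) and the ephrin gene EFNB2 (0.35). PTGER4 lay nearest to TRAF1 (0.15), a TNF receptor-associated factor, and to LIMA1 (0.15), an actin-binding gene. Within single passages CXCL2 was again nearest to PTGS2 in passage 8 (0.21) and not in passage 6, where NDP was (0.16). The nearest in passages 6 and 8 were MME and TMEM132A for PTGES, MEST and EFNB2 for PTGIS, and PRSS35 and VASP for PTGER4.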

How the data were processed

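RNA of CCL-75 fibroblasts was measured on 23 arrays. The deposited table of raw intensities was exported with GenomeStudio 2011.1, per the submitters' processing notes, with a detection p-value and a bead count per probe, per the file headers. The authors' deposited normalised table holds log2 values, and its normalisation method is not given in the sources used here. Arrays were assigned to groups, passages and experiments A and B by their labels.

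Intensities were background-corrected with the negative controls inferred from the detection p-values, quantile-normalised and put on the log2 scale with an offset of 16 (neqc, limma 3.58.1, R 4.3.3). Of 47323 probes, 14 lacked a value on at least 1 array and were not used, and 24109 with a detection p-value under 0.05 on at least 3 arrays were kept. The brightest probe stood for each of 12994 genes, named through the platform annotation and RefSeq. Group means and a passage term were fitted to all arrays in 1 linear model (lmFit, eBayes with an intensity trend, 16 residual degrees of freedom), with 2-sided tests adjusted by Benjamini-Hochberg over all genes in each comparison. Passage differences came from a model with a mean for each group and passage. The pipeline was tested on simulated data. The number of arrays limits the precision. "At least" folds set the bright group's mean against the lowest detected signal per array of a group without detection.

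The members, gene lists and tests were chosen with earlier results of these data known. Named were all 10 members, the other listed pathway genes called in at least 1 comparison, and, for members whose group means spanned at least 1 log2 unit, the 2 genes nearest in pattern. Genes nearest within single passages come from the same rule applied per passage. Alternatives changed the background correction, scaling, filter, probe choice, replicate unit, passage term, arrays included, spread and adjustment.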

Additional observations from a re-analysis of the deposited data

Results flagged for a closer look

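Of 50 sets of 4 arrays (1 member in 1 group), 3 held an array far from the other 3, where chance alone marks about 1 in 20 sets. The gap to the nearest array, as a share of the whole range of the group, was 0.837 for PTGS1 in Pre_Ab_IL13 P8-B (level 8.63), 0.880 for PTGIS in Pre_IL13 P6-B (level 5.80) and 0.918 for PTGFR in Pre_IL13 P8-B (level 5.31). The PTGS1 and PTGFR groups have narrow ranges, from 8.52 to 8.63 and from 5.31 to 5.47.

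The response of PTGIS to IL-13 differed between primed and unprimed cells by -1.22 (limma adjusted p = 0.0128). The effect of priming differed between passages for PTGS2 by 1.48, for PTGIS by 0.77, for PTGER2 by -0.56 and for PTGES by -0.47. These values take in all primed and unprimed groups, also those given IL-13 or antibody. For Pre_only against Control the effect of priming differed for PTGES by -1.14. That size is not exact, since neither Control array of passage 6 detected PTGES and passage 8 of Pre_only is 1 array. The change of PTGS2 with IL-13 in primed cells differed between passages by 1.33.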

How the results depend on the processing

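For 31 member changes, 847 values under other settings were computed: 764 kept the direction and the side of the threshold, 75 lost the call, 6 gained one and 2 reversed. With passage 8 alone PTGS2 changed with IL-13 in primed cells by 0.25 instead of -0.45, and its difference in response between primed and unprimed cells was 0.46 instead of -0.53. With passage 6 alone both were called (-1.08 and -1.44). The number of members called with IL-13 alone went from 2 to 1 with A and B averaged, with median scaling and with passage 8 alone. With the antibody it went from 2 to 1 with A and B averaged, and for Pre_Ab_IL13 against Pre_IL13 from 2 to 1 with A and B averaged, median scaling or passage 6 alone (1 to 2 when single arrays were left out). In primed cells given IL-13 it went from 0 to 1 with passage 6 alone. For the difference in response between primed and unprimed cells it went from 1 to 0 with A and B averaged, median scaling or no passage term, to 2 with passage 6 alone, and was 0 to 1 when arrays were left out. For the antibody's effect on the response it went from 0 to 1 with the groups of the comparison alone or adjustment over all comparisons. The passage difference of Pre_only against Control went from 1 to 2 with an offset of 50, without background subtraction and in the authors' table, to 0 with median scaling, and was 0 to 2 when arrays were left out. That of all primed groups went from 4 to 1 with median scaling. The members that differed between passages went from 3 to 1 with A and B averaged, and were 1 to 3 when arrays were left out. The causes were not tested. Median scaling moved the median change of all genes by over 0.1 in 6 of the 10 comparisons, for example by -0.11 with IL-13 alone and by 0.15 for Pre_IL13 against IL13, where it took the share of calls that were higher from 50.4% to 81.2%. For Pre_only against Control that share went from 48.4% to 38.2%. The called genes numbered 243 with IL-13 alone (55 to 346 over the settings), 3226 with priming (1776 to 3266), 4 with IL-13 in primed cells (1 to 74), 291 with the antibody and IL-13 (75 to 622), 0 for the antibody alone (0 to 32), 120 for Pre_Ab_IL13 against Pre_IL13 (26 to 261), 3611 for Pre_IL13 against IL13 (2435 to 3655), and 39 (3 to 120), 30 (3 to 103) and 9 (1 to 69) for the 3 differences in response. With the replicate label (passage and experiment) as a block, fitted for 22 member changes of the group and response comparisons, 0 of these calls changed: PTGIS differed in response by -1.21 (adjusted p = 0.0237), and PTGER4 fell with priming (-0.45, adjusted p = 0.0377). Deviations of arrays that share a label correlated between -0.39 and 0.40. Whether these arrays share an experiment cannot be told from these correlations. The passage differences were not fitted with this block, which holds the passage. On the given strand alone the SP1 matches of PTGER4 were 0. Levels near detection (PTGES in unprimed cells) limit its fold. Raw intensities of PTGS2 in unprimed cells were low as well, and their effect on its fold was not tested. The effect of the low levels of PTGIS in Pre_only and Pre_IL13 on its changes was not tested.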
